A study of Mus musculus with 12 samples.

Results

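The glycolysis and hypoxia genes described here are 37 named mouse genes for glucose uptake, the enzymes of glycolysis, the handling of its products, targets of the hypoxia-inducible factors and the factors themselves. They were chosen by name, as all probe sets (groups of array probes that report on a transcript) whose platform annotation gives exactly 1 gene symbol and whose symbol is on that list. This rule found 75 probe sets for 32 genes among 28805 such probe sets for 15858 genes. Gapdh and Bnip3l were each present only in 3 probe sets that also name other genes and were left out by the rule. Gpi1, Eno1 and Eno2 were not analysed here. Expression was measured on 12 Affymetrix arrays in 4 groups of 3.

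All cells were bone marrow cells of C57BL6 mice, immortalised by the developmental transcription factor HoxA9, transduced with a retrovirus and transplanted into irradiated recipients. The empty vector group received the EGFP control vector and no further treatment. The IDH1wt group received pSF91-IDH1wt-IRES-EGFP and the IDH1mut group pSF91-IDH1mut-IRES-GFP, which carry the wild-type and mutant form of isocitrate dehydrogenase 1. The R-2HG group carried the empty vector, and its recipients were given R-2-hydroxyglutarate, the product of mutant IDH1, at 1 mg per day for 4 weeks. For these samples 1 text field names the mutant vector and all other labels the empty vector, and the latter was followed. After 4 weeks GFP-positive cells were sorted from the marrow, so each array reports on all sorted cells as a mixture. Whether the 3 replicates of a group are 3 mice is not stated, and p-values then reflect the spread between these samples alone, possibly technical.

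Glycolysis splits glucose into pyruvate in the cytosol. Pyruvate is then reduced to lactate and exported, or enters the mitochondria through the pyruvate dehydrogenase complex. Hypoxia-inducible factors (HIF) are pairs of an oxygen-regulated alpha subunit, encoded by Hif1a or Epas1, and the stable partner encoded by Arnt. In the presence of oxygen, prolyl hydroxylases that use 2-oxoglutarate mark the alpha subunit for the Vhl ubiquitin ligase. Stabilised HIF binds a short core sequence in DNA and raises many glycolytic genes, the lactate exporter Slc16a3 and Pdk1, which blocks pyruvate dehydrogenase. HIF is chiefly regulated as a protein, so transcript levels of Hif1a do not report its activity.

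Because the members are known for HIF control, the 250 bases before the transcription start of 6 of them are shown with each match to the HIF core, ACGTG or GCGTG on either strand, in capitals. Slc16a3 and Pfkfb4 were higher in IDH1mut cells, Ldha, Hk2 and Pgam1 were lower in R-2HG cells, and Car9 was lower in both. Sequences run 5′ to 3′ on the strand of the gene, with RefSeq coordinates of GRCm38.p6, and for Ldha the start with the most matches is shown.
Slc16a3, chr11:120948817-120949066, plus strand: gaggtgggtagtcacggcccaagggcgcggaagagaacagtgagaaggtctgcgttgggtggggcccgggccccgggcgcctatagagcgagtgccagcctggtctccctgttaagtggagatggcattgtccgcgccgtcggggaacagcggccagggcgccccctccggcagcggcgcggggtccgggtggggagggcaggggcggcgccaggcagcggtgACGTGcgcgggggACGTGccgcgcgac
Pfkfb4, chr9:108991652-108991901, plus strand: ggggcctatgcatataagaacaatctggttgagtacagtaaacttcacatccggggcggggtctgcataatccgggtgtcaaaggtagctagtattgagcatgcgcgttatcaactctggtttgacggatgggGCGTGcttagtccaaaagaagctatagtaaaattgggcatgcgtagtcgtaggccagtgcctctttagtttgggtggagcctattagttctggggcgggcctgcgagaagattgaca
Ldha, chr7:46845554-46845803, plus strand: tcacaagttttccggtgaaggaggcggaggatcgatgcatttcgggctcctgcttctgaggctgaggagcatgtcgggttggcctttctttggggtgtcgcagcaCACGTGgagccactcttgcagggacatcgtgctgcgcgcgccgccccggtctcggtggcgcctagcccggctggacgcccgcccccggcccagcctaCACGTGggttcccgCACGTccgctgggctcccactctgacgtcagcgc
Hk2, chr6:82774455-82774704, minus strand: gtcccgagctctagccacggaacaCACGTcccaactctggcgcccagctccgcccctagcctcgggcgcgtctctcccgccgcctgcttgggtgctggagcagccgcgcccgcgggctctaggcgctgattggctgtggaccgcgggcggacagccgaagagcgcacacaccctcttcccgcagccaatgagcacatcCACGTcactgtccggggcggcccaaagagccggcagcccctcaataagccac
Pgam1, chr19:41911621-41911870, plus strand: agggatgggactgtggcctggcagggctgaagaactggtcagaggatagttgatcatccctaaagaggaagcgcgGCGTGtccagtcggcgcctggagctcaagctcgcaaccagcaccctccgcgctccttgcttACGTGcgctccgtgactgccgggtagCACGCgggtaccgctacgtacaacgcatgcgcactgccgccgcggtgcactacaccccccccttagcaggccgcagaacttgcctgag
Car9, chr4:43506776-43507025, plus strand: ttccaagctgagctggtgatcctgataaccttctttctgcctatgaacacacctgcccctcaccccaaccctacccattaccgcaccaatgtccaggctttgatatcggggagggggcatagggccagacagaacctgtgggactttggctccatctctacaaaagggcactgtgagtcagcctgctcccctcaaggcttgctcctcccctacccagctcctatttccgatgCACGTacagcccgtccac
The RefSeq table held a promoter for 29 of the 32 members, all except Epas1, Ndrg1 and Slc2a3, with 41 starts in all. ACGTG or GCGTG was present before at least 1 start in 26 of the 29 (89.7%) and 55.9% of 12658 array genes with a promoter. For ACGTG alone the shares were 58.6% and 23.2%. All promoters shown above hold a match. The members without one were Tpi1, Mif and Vhl, and Tpi1 was called lower in both IDH1mut and R-2HG. ACGTG lies within CACGTG, the E-box bound by MYC and related factors, which was present in 20.7% of members and 9.15% of array genes. GGGCGG, the GC box, was present in 69.0% of members and 56.8% of array genes, and the median G and C content was 60.4% and 58.4%. A gene with several starts was counted once. Members had 41 starts for 29 genes and array genes 15979 for 12658, which was not adjusted for. The members were chosen by name, many as known HIF targets, so their share says nothing about the expression results. These counts describe letters only: binding was not measured.

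The deposited values are log2 values centred on a reference value for each probe set. They therefore show differences between arrays, not how strongly a gene is expressed, and genes cannot be ranked by level. For the same reason the cell type label could not be checked by marker levels, only by marker differences. Pairs of arrays of 1 group differed with an SD over probe sets of 0.176 to 0.363, and pairs of different groups with 0.291 to 0.559. R-2HG replicates 1 and 2 stood apart from replicate 3, also in markers of other marrow cells. For 12 genes of mast cells, basophils and eosinophils the median was -1.77, -1.90 and 0.26 in R-2HG replicates 1, 2 and 3 and ran from 0.00 to 0.05 in empty vector. That of 12 erythroid genes was -1.55, -1.89 and 0.00 in the R-2HG replicates, -0.88, -0.79 and -0.73 in empty vector, -1.09, 0.26 and -0.15 in IDH1wt and 0.17, 0.47 and 0.32 in IDH1mut. That of 10 B cell genes was -0.68, -0.69 and -0.20 for R-2HG and 1.34, 0.00 and 0.01 for empty vector. That of 12 secondary granule and mature neutrophil genes was -0.10, -0.27 and -0.22 in empty vector, 0.36, 0.34 and 0.31 in IDH1mut and 0.26, 0.24 and 0.17 in R-2HG. Primary granule genes (6) had medians of 0.14, 0.28 and 0.28 in empty vector, -0.58, -0.58 and -0.57 in IDH1mut and 0.00, 0.02 and -0.38 in R-2HG. Stem and progenitor genes (7) had medians of 0.10, 0.22 and 0.14 in empty vector, -0.23, 0.26 and 0.01 in IDH1mut and -0.37, -0.40 and -0.34 in R-2HG. Heat shock and immediate early genes, which respond to handling of cells, had a median of 0.67, 0.71 and 0.77 in empty vector and from -0.58 to 0.31 in the other groups. The part of cell composition and handling in the results on members was not tested, and in bulk RNA a change in the number of cells of a type and in RNA per cell cannot be told apart.

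**Figure D1:**
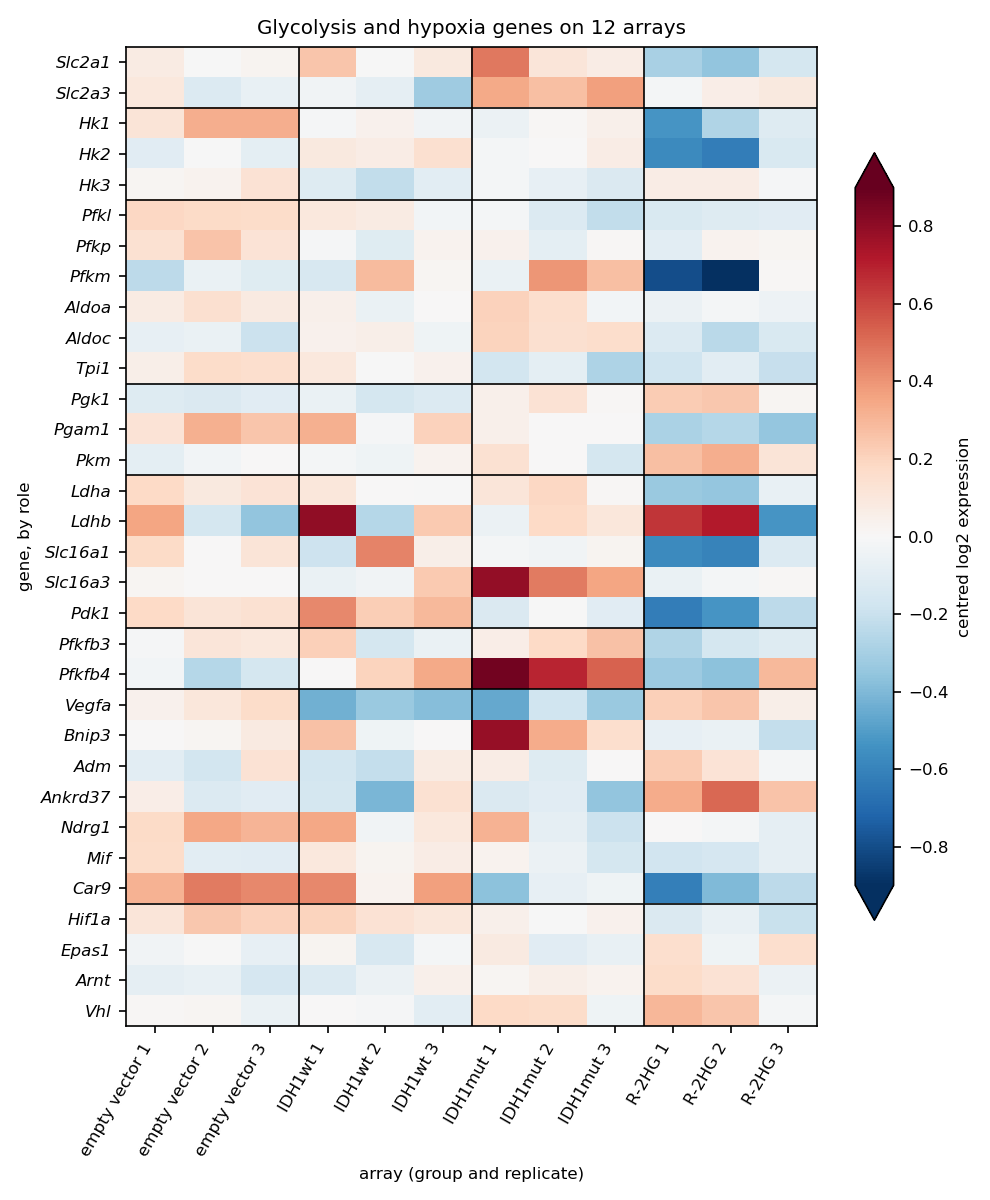
Centred log2 expression of the 32 measured members (rows, by role) on the 12 arrays (columns, 3 per group); red is above and blue below the reference of each gene, and darker ends mark values beyond 0.9 in size. The IDH1mut columns are red for Slc16a3 and Pfkfb4, and R-2HG replicates 1 and 2 are deeper blue than replicate 3 for Hk2, Pfkm, Slc16a1 and Pdk1.

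With mutant IDH1 the members moved in both directions. Against empty vector, limma's moderated test called 8 of 32 members at a Benjamini-Hochberg adjusted p under 0.05, 4 higher and 4 lower. This is 25.0% of members, beside 22.6% of all genes (10.5% higher and 12.1% lower), so the share called was near that of all genes. The genes that rose were the lactate exporter Slc16a3, Pfkfb4, the glucose transporter Slc2a3 and Aldoc, and those that fell were Car9, Vegfa, Tpi1 and Pfkl. The median log2 fold change was 0.01 over members and -0.05 over all genes, and the changes ran from -0.57 for Car9 to 0.84 for Pfkfb4. The 2 groups were free of overlap for 18 of 32 members and for 41.1% of all genes. Without R-2HG replicates 1 and 2 in the shared fit 9 members were called, beside 23.3% of all genes.

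With R-2HG treatment more of the members fell than rose, against vector cells from recipients without the compound. Of 32 members 14 were called, 11 lower and 3 higher, which is 43.8% beside 40.8% of all genes. Members called lower were 34.4%, beside 24.3% of all genes, and members called higher 9.38%, beside 16.5%. Lower were Car9, Pdk1, Hk1, Slc16a1, Pgam1, Hk2, Ldha, Hif1a, Slc2a1, Pfkl and Tpi1, and higher were Ankrd37, Pgk1 and Pkm. The median log2 fold change was -0.14 over members and 0.00 over all genes. No overlap between the 2 groups was seen for 20 members and 53.5% of all genes. For 11 of the 14 called members R-2HG replicate 3 lay nearer to the mean of empty vector than replicates 1 and 2 did, and for all 14 it lay outside the range of the empty vector arrays. Without R-2HG replicates 1 and 2, on the assumption that the remaining R-2HG array varies as much as the other groups do, 4 members (Pgam1, Pdk1, Car9 and Hif1a) were called beside 11.5% of all genes. All 14 changes kept their direction there, and for 6 (Pfkl, Tpi1, Pgam1, Ankrd37, Car9 and Hif1a) they stayed within 1.5 times of the change over all arrays. The other 8 shrank by more, to between -0.38 for Pdk1 and 0.16 for Pkm. Further quantile normalization ended the calls of Hk2, Slc16a1 and Slc2a1.

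Both comparisons share the empty vector arrays, and Car9, Pfkl and Tpi1 were called lower in both, which is 3 of the 8 IDH1mut calls and 3 of the 14 R-2HG calls. The share of all genes called in both was not counted, so whether this overlap is large or small cannot be told. IDH1mut was therefore set against R-2HG directly, to ask whether the mutant enzyme and its product gave different levels. There 17 members were called, 14 higher in IDH1mut and 3 lower, or 53.1% beside 36.0% of all genes (20.3% higher and 15.8% lower). The 14 were Pfkfb4, Pfkm, Slc16a3, Bnip3, Slc2a1, Hk2, Slc16a1, Pdk1, Ldha, Pfkfb3, Aldoc, Pgam1, Hk1 and Slc2a3, and the 3 were Ankrd37, Vegfa and Pkm. The median log2 fold change was 0.15 over members and -0.00 over all genes, and 17 members and 47.9% of all genes had no overlap between the groups. Without R-2HG replicates 1 and 2, which leaves 1 R-2HG array, limma called 0 members (9 had an unadjusted p under 0.05) and 2.12% of all genes. All 17 differences kept their direction there. For 9 (Slc2a1, Slc2a3, Aldoc, Pgam1, Slc16a3, Pfkfb3, Vegfa, Bnip3 and Ankrd37) the log2 difference stayed within 1.5 times of that over all arrays. For the other 8 it shrank by more: to 0.11 for Hk1, 0.16 for Hk2, 0.20 for Pfkm, -0.12 for Pkm, 0.17 for Ldha, 0.12 for Slc16a1, 0.16 for Pdk1 and 0.41 for Pfkfb4. Without R-2HG replicate 1 alone 10 members were called, beside 21.3% of all genes. Further quantile normalization ended the calls of Hk1, Pkm and Slc16a1.

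In cells with wild-type IDH1 only Vegfa, lower than in empty vector, was called among the 32 members (3.12%, beside 1.35% of all genes). The same held without R-2HG replicates 1 and 2 (1 member, beside 1.51%). No overlap was seen for 10 members and 23.8% of all genes. Mutant against wild-type IDH1 gave 4 calls (12.5%, beside 15.7% of all genes), with Slc2a3 and Slc16a3 higher (8.37% of all genes were) and Pdk1 and Car9 lower in IDH1mut (7.29% of all genes were). For 9 members and 32.7% of all genes these groups had no overlap. Over the 4 groups together an F test called 22 members, or 68.8%, beside 54.6% of all genes.

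**Figure D2:**
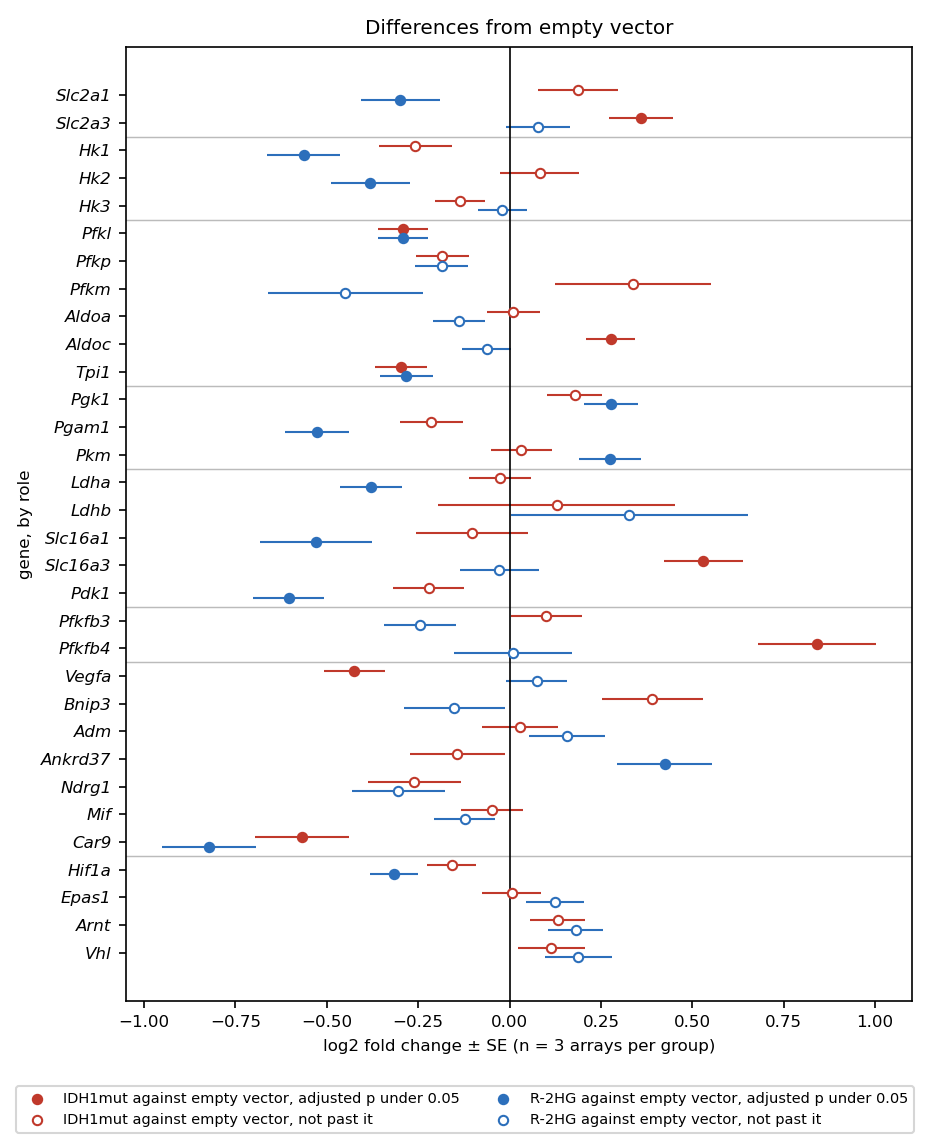
Log2 fold change of each member (rows, by role) in IDH1mut (red) and R-2HG (blue) against empty vector, with bars of 1 SE and n = 3 arrays per group; filled points passed an adjusted p under 0.05 and open points did not. Red points are filled on the right for Slc2a3, Aldoc, Slc16a3 and Pfkfb4, and most filled blue points lie on the left.

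Glucose enters blood cells through the transporters encoded by Slc2a1 and Slc2a3. Slc2a3, the high-affinity transporter abundant in white blood cells, stood at 0.34, 0.27 and 0.37 in IDH1mut replicates 1, 2 and 3, at 0.09, -0.12 and -0.07 in empty vector, at -0.03, -0.08 and -0.32 in IDH1wt and at -0.02, 0.06 and 0.09 in R-2HG. All 3 IDH1mut arrays lay above every other array. Its log2 fold change was 0.36 ± 0.09 (SE, n = 3 per group, as for all changes below) against empty vector (adjusted p = 0.0112) and 0.47 ± 0.09 against IDH1wt (adjusted p = 0.00413). The call against empty vector was lost without empty vector replicate 2 (adjusted p = 0.0506). Its 4 probe sets differed: 1437052_s_at and 1455898_x_at rose by 0.69 and 0.76 in IDH1mut and by 0.41 and 0.41 in R-2HG, all called, whereas 1427770_a_at and 1421924_at were called in neither. The change against R-2HG (0.28 ± 0.09, adjusted p = 0.0263) was lost when IDH1mut replicate 1 or 3 or R-2HG replicate 1 or 2 was left out (adjusted p from 0.0594 to 0.0919).

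Slc2a1, the transporter that supplies basal uptake and is abundant in red cell precursors, stood at -0.29, -0.36 and -0.16 in R-2HG and 0.07, -0.01 and 0.02 in empty vector, and the groups did not overlap. In IDH1mut it was 0.48, 0.11 and 0.07, with replicate 1 far above the other two, and in IDH1wt 0.25, -0.01 and 0.09. It was lower in R-2HG than in empty vector (-0.30 ± 0.11, adjusted p = 0.0452) and higher in IDH1mut than in R-2HG (0.49 ± 0.11, adjusted p = 0.00663). The former call was lost without any 1 of the empty vector arrays, R-2HG replicate 1 or 2, or IDH1wt replicate 3 (adjusted p from 0.0579 to 0.145). Of its 3 probe sets 1426600_at was at -0.05 and the others at -0.41 and -0.43. R-2HG replicates 1 and 2 were lowest both in Slc2a1 and in the erythroid marker median. That median was 0.17, 0.47 and 0.32 in IDH1mut. Of 12 erythroid genes 11 were called higher in IDH1mut than in R-2HG, beside 20.3% of all genes. IDH1wt replicate 1 had the next lowest median (-1.09) and a Slc2a1 value of 0.25. The part of erythroid cells in the Slc2a1 result was not tested.

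Hexokinases trap glucose in the cell by phosphorylation. Hk1, the constitutive form, stood at 0.12, 0.32 and 0.33 in empty vector, -0.01, 0.04 and -0.03 in IDH1wt, -0.06, 0.01 and 0.04 in IDH1mut and -0.53, -0.27 and -0.12 in R-2HG. Empty vector was above every other array and R-2HG below every other array. The fall in R-2HG was -0.56 ± 0.10 (adjusted p = 0.00113), with both probe sets called, while IDH1mut was at -0.26 ± 0.10 (adjusted p = 0.0863). IDH1mut lay above R-2HG (0.31 ± 0.10, adjusted p = 0.0332), a call lost without IDH1mut replicate 2 or 3 or R-2HG replicate 1 or 2 (adjusted p from 0.071 to 0.136). Hk2, the inducible form and a HIF target, stood at -0.58, -0.62 and -0.14 in R-2HG and -0.10, 0.00 and -0.09 in empty vector. In IDH1wt it was 0.09, 0.06 and 0.14 and in IDH1mut -0.01, 0.00 and 0.07. Only R-2HG replicates 1 and 2 lay far below the rest. Hk2 fell by 0.38 ± 0.11 in R-2HG (adjusted p = 0.0151), a result lost without empty vector replicate 2 or R-2HG replicate 1 or 2 (adjusted p from 0.056 to 0.0713), and IDH1mut exceeded R-2HG by 0.46 ± 0.11 (adjusted p = 0.00794). Hk3, the hexokinase of myeloid cells, was called in none of the 5 comparisons, with changes from -0.21 to 0.07.

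In upper glycolysis, phosphofructokinase commits sugar to breakdown and aldolase and Tpi1 yield the triose phosphates. Pfkl, the liver-type phosphofructokinase subunit, stood at 0.18, 0.17 and 0.16 in empty vector, 0.09, 0.07 and -0.03 in IDH1wt, -0.01, -0.12 and -0.22 in IDH1mut and -0.14, -0.12 and -0.10 in R-2HG. Every empty vector array lay above all others. The falls were -0.29 ± 0.07 in IDH1mut (adjusted p = 0.0093) and -0.29 ± 0.07 in R-2HG (adjusted p = 0.00561). They were steepest at probe set 1439148_a_at, at -0.50 and -0.95, both called. Probe set 1453541_at was at 0.23 in R-2HG (adjusted p = 0.0654), and between IDH1mut and R-2HG these 2 probe sets were called in opposite directions (0.44 and -0.32), with the gene mean at -0.00.

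Tpi1, triose phosphate isomerase, stood at 0.05, 0.16 and 0.15 in empty vector, 0.09, 0.00 and 0.04 in IDH1wt, -0.16, -0.08 and -0.28 in IDH1mut and -0.18, -0.09 and -0.21 in R-2HG. The IDH1mut and R-2HG arrays all lay below the empty vector and IDH1wt arrays. It fell in IDH1mut (-0.30 ± 0.07, adjusted p = 0.0105), at all 3 of its probe sets, and in R-2HG (-0.28 ± 0.07, adjusted p = 0.00847). Against IDH1wt the mutant was at -0.22 ± 0.07 (adjusted p = 0.0582). Aldoc, an aldolase form best known from brain, moved the other way. It stood at 0.20, 0.15 and 0.16 in IDH1mut and -0.07, -0.06 and -0.19 in empty vector, with IDH1wt at 0.04, 0.05 and -0.04 and R-2HG at -0.12, -0.25 and -0.14. The IDH1mut arrays were the highest, and the rise over empty vector was 0.28 ± 0.07 (adjusted p = 0.011), lost without empty vector replicate 3 (adjusted p = 0.057). Over R-2HG it was 0.34 ± 0.07 (adjusted p = 0.00386). The 2 Aldoc probe sets differed. Over empty vector 1451461_a_at was called (0.34) and 1424714_at was not (0.22), and over R-2HG 1424714_at was called (0.53) and 1451461_a_at was not (0.15). In R-2HG against empty vector they were at 0.19 and -0.31 (1451461_a_at and 1424714_at), neither called.

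Pfkm, the muscle-type phosphofructokinase subunit, showed the widest spread of this group. It stood at -0.80, -0.96 and 0.01 in R-2HG, -0.24, -0.06 and -0.11 in empty vector, -0.14, 0.29 and 0.02 in IDH1wt and -0.06, 0.39 and 0.27 in IDH1mut. R-2HG replicate 3 lay among the arrays of the other groups. The call for IDH1mut against R-2HG (0.79 ± 0.21, adjusted p = 0.0151) was lost without IDH1mut replicate 2 or R-2HG replicate 1 or 2 (adjusted p from 0.0534 to 0.0671), and these groups overlapped. The mast cell, basophil and eosinophil marker median was likewise low in R-2HG replicates 1 and 2 and not in replicate 3, and its part in this result was not tested. Aldoa and Pfkp were called in none of the 5 comparisons. At Pfkp probe set 1430634_a_at alone the log2 fold change was -0.55 in IDH1mut and -0.50 in R-2HG, both called. IDH1wt stood there at 0.17, -0.20 and 0.00, also below all empty vector arrays (0.39, 0.49 and 0.37), and was not called. At Aldoa probe set 1439375_x_at, 1 of 5, it was -0.27 in R-2HG and was called.

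In lower glycolysis, Pgk1 and Pkm form ATP and Pgam1 shifts a phosphate group between those steps. R-2HG moved these genes in opposite directions. Pgam1, phosphoglycerate mutase, stood at -0.28, -0.26 and -0.35 in R-2HG, below every other array, at 0.12, 0.32 and 0.25 in empty vector, 0.32, -0.01 and 0.21 in IDH1wt and 0.04, 0.00 and 0.00 in IDH1mut. Its fall in R-2HG was -0.53 ± 0.09 (adjusted p = 0.000748), and replicate 3 was the lowest of the R-2HG arrays. Between IDH1mut and R-2HG it differed by 0.31 ± 0.09 (adjusted p = 0.0172). Pgk1, phosphoglycerate kinase, stood at 0.23, 0.24 and 0.01 in R-2HG and -0.11, -0.13 and -0.10 in empty vector, with IDH1wt at -0.06, -0.16 and -0.12 and IDH1mut at 0.05, 0.13 and 0.01. It rose in R-2HG by 0.28 ± 0.07 (adjusted p = 0.0114), lost without R-2HG replicate 1 or 2 (adjusted p from 0.052 to 0.0538).

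Pkm, the pyruvate kinase gene of most tissues, stood at 0.27, 0.33 and 0.12 in R-2HG, -0.09, -0.03 and 0.00 in empty vector, -0.02, -0.04 and 0.03 in IDH1wt and 0.14, 0.00 and -0.16 in IDH1mut. R-2HG was above empty vector and IDH1wt and overlapped IDH1mut. The rise over empty vector was 0.27 ± 0.08 (adjusted p = 0.0215), lost without empty vector replicate 1 or 2 or R-2HG replicate 1 or 2 (adjusted p from 0.0526 to 0.0891). Against R-2HG the mutant was at -0.24 ± 0.08 (adjusted p = 0.0412), a call lost in 7 of the 12 single-array omissions (without empty vector replicate 2 or 3, IDH1wt replicate 3, IDH1mut replicate 2 or 3, or R-2HG replicate 1 or 2, adjusted p from 0.052 to 0.15).

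Pyruvate is turned to lactate by lactate dehydrogenase and leaves through monocarboxylate transporters. Slc16a3, the exporter of glycolytic cells, was high in IDH1mut alone. It stood at 0.79, 0.47 and 0.36 in IDH1mut, 0.02, 0.00 and 0.00 in empty vector, -0.06, -0.03 and 0.24 in IDH1wt and -0.06, -0.02 and 0.01 in R-2HG. The lowest IDH1mut array was above the highest of the other 9. The rise was 0.53 ± 0.11 over empty vector (adjusted p = 0.00447), 0.49 ± 0.11 over IDH1wt (adjusted p = 0.0104) and 0.56 ± 0.11 over R-2HG (adjusted p = 0.00366). All 3 were kept in every single-array omission. Without both R-2HG replicates 1 and 2 the difference from R-2HG was 0.52, about as large, with 1 R-2HG array left (adjusted p = 0.114). The difference of R-2HG from empty vector was -0.03 ± 0.11, with a 95% interval from -0.26 to 0.21.

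Slc16a1, the transporter that carries lactate in both directions, stood at -0.57, -0.60 and -0.12 in R-2HG, 0.17, 0.00 and 0.11 in empty vector, -0.19, 0.45 and 0.05 in IDH1wt and -0.02, -0.03 and 0.03 in IDH1mut. R-2HG replicates 1 and 2 lay far below the rest. The fall in R-2HG was called (-0.53 ± 0.15, adjusted p = 0.0164), at 1415802_at but not at 1446274_at, and the call was lost without R-2HG replicate 1 or 2 (adjusted p from 0.0662 to 0.0699). Against R-2HG the mutant was at 0.43 ± 0.15 (adjusted p = 0.047), a call lost in 9 of the 12 single-array omissions (all except those of IDH1wt replicate 1 or 2 and R-2HG replicate 3, adjusted p from 0.0567 to 0.164). Ldha, the lactate-forming dehydrogenase subunit and a HIF and MYC target, stood at -0.33, -0.35 and -0.07 in R-2HG and 0.18, 0.09 and 0.12 in empty vector. IDH1wt was at 0.10, 0.00 and -0.01 and IDH1mut at 0.11, 0.18 and 0.01. It fell in R-2HG (-0.38 ± 0.08, adjusted p = 0.00438) with IDH1mut above R-2HG (0.35 ± 0.08, adjusted p = 0.00935). Ldhb, the other subunit, varied more within groups than any other member and was called nowhere. It stood at 0.80, -0.26 and 0.24 in IDH1wt and 0.64, 0.71 and -0.53 in R-2HG, with a range of -0.36 to 0.35 in the other groups.

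Pdk1, the kinase that turns off pyruvate dehydrogenase, separated all 4 groups in the mean of its 4 probe sets. It stood at 0.43, 0.22 and 0.29 in IDH1wt, 0.18, 0.11 and 0.13 in empty vector, -0.13, -0.01 and -0.10 in IDH1mut and -0.62, -0.53 and -0.24 in R-2HG. In this mean no array of any group overlapped with another group, but no single probe set kept all 4 groups apart. IDH1wt was not called against empty vector (0.17 ± 0.10, adjusted p = 0.405). The fall in R-2HG was -0.60 ± 0.10 (adjusted p = 0.000615). IDH1mut was lower than IDH1wt (-0.39 ± 0.10, adjusted p = 0.0168), a call lost without IDH1wt replicate 1 or IDH1mut replicate 1 (adjusted p = 0.0664 and 0.0513), and higher than R-2HG (0.38 ± 0.10, adjusted p = 0.0114), lost without R-2HG replicate 1 (adjusted p = 0.0523). Against empty vector IDH1mut was at -0.22 ± 0.10 (adjusted p = 0.124). At single probe sets 1423747_a_at and 1423748_at this last change was -0.43 and -0.40 and was called. In R-2HG 3 of the 4 probe sets fell, by 0.70, 0.85 and 0.93, while 1434974_at was at 0.06 (adjusted p = 0.747).

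The enzymes of the fructose bisphosphate signal that sets phosphofructokinase activity are encoded by Pfkfb3 and Pfkfb4, both known HIF targets. Pfkfb4 rose furthest of all members with mutant IDH1. It stood at 0.87, 0.69 and 0.53 in IDH1mut, 0.00, 0.20 and 0.34 in IDH1wt, -0.02, -0.26 and -0.16 in empty vector and -0.33, -0.37 and 0.29 in R-2HG. The IDH1mut arrays were the highest, and R-2HG replicate 3 lay among the IDH1wt arrays, away from replicates 1 and 2. The rise was 0.84 ± 0.16 over empty vector (adjusted p = 0.00309) and 0.83 ± 0.16 over R-2HG (adjusted p = 0.00369), while over IDH1wt it was 0.51 ± 0.16 (adjusted p = 0.0515). Pfkfb3 stood at 0.06, 0.18 and 0.26 in IDH1mut and -0.27, -0.16 and -0.12 in R-2HG, with empty vector at -0.01, 0.11 and 0.10 and IDH1wt at 0.22, -0.16 and -0.06. It was called for IDH1mut against R-2HG alone (0.35 ± 0.10, adjusted p = 0.0184), not without IDH1mut replicate 3 or R-2HG replicate 1 (adjusted p = 0.0635 and 0.0719).

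**Figure D3:**
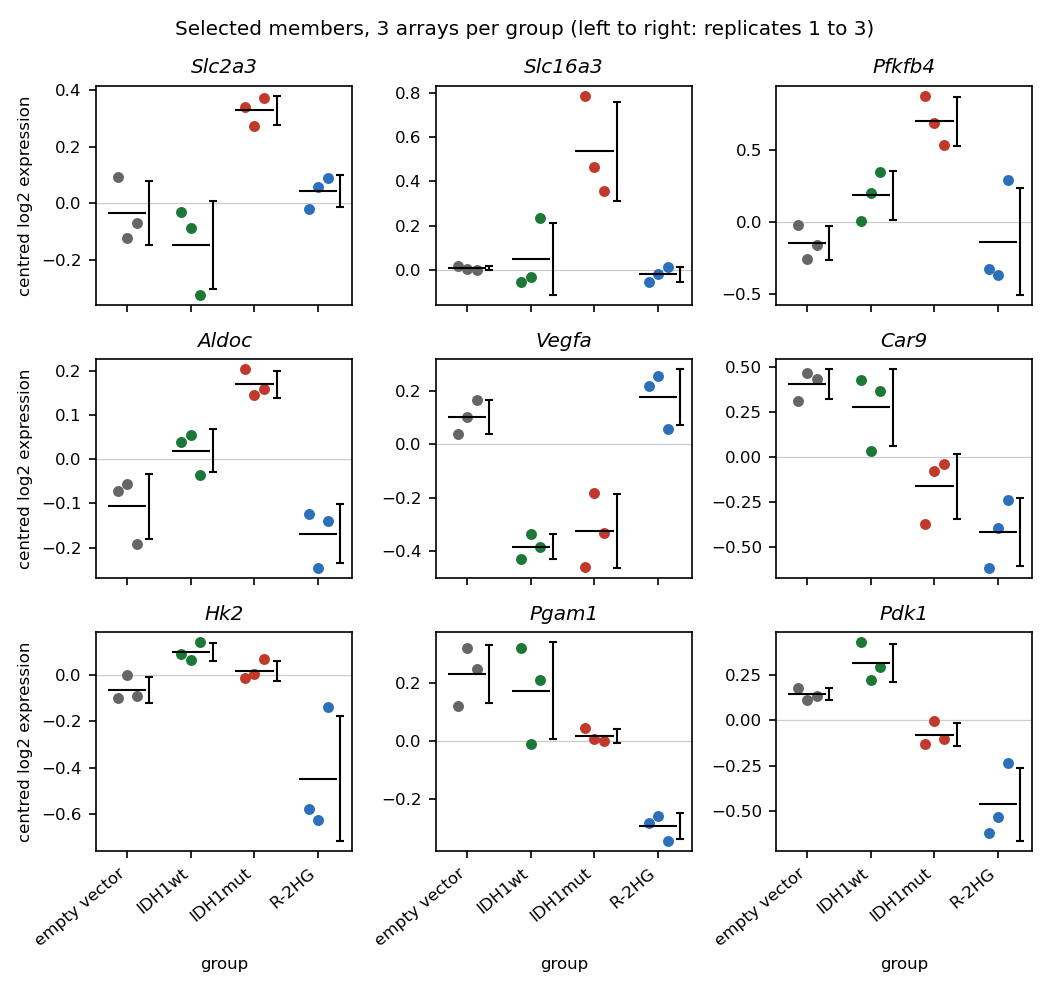
Centred log2 expression of 9 members on the 12 arrays, 1 panel per gene with its own axis; points are arrays, horizontal lines group means and vertical bars 1 SD (n = 3). Slc2a3, Slc16a3, Pfkfb4 and Aldoc are highest in IDH1mut, Vegfa is low in IDH1wt and IDH1mut, and Hk2, Pgam1 and Pdk1 are lowest in R-2HG.

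Among the hypoxia targets, Vegfa, the vascular growth factor, was low in both groups with an IDH1 construct. It stood at -0.43, -0.34 and -0.38 in IDH1wt and -0.46, -0.18 and -0.33 in IDH1mut, against 0.04, 0.10 and 0.16 in empty vector and 0.22, 0.25 and 0.06 in R-2HG. The arrays of these groups all lay below the arrays of the groups without one. The change against empty vector was -0.49 ± 0.08 in IDH1wt (adjusted p = 0.0152), lost without empty vector replicate 2 or 3 or IDH1wt replicate 3 (adjusted p from 0.0633 to 0.0873), and -0.43 ± 0.08 in IDH1mut (adjusted p = 0.00364). IDH1mut was also lower than R-2HG (-0.50 ± 0.08, adjusted p = 0.00203). Of its 2 probe sets, only 1420909_at was called in IDH1wt (-0.56, and -0.41 at 1451959_a_at) and only 1451959_a_at in IDH1mut (-0.60, and -0.25 at 1420909_at). Mutant and wild-type IDH1 differed by 0.06 ± 0.08, with a 95% interval from -0.12 to 0.24.

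Car9, the membrane carbonic anhydrase that disposes of acid, fell furthest of all members in both comparisons with empty vector. It stood at 0.31, 0.47 and 0.43 in empty vector, 0.43, 0.03 and 0.37 in IDH1wt, -0.37, -0.08 and -0.04 in IDH1mut and -0.62, -0.40 and -0.24 in R-2HG. All IDH1mut and R-2HG arrays lay below the other arrays. The changes were -0.57 ± 0.13 in IDH1mut (adjusted p = 0.00772) and -0.82 ± 0.13 in R-2HG (adjusted p = 0.000536). Both were kept in every single-array omission. Against IDH1wt the mutant was at -0.44 ± 0.13 (adjusted p = 0.0377), a call lost in 7 of 12 omissions (without empty vector replicate 2 or 3, IDH1wt replicate 1 or 3, IDH1mut replicate 1 or 2, or R-2HG replicate 2, adjusted p from 0.0506 to 0.132).

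Bnip3, a mitochondrial protein of mitophagy and cell death, stood at 0.79, 0.34 and 0.15 in IDH1mut, 0.00, 0.02 and 0.08 in empty vector, 0.26, -0.04 and 0.00 in IDH1wt and -0.07, -0.06 and -0.22 in R-2HG. IDH1mut replicate 1 was the highest array, as it was for Slc2a1, Slc16a3 and Pfkfb4. The change was called against R-2HG (0.54 ± 0.14, adjusted p = 0.0116) and not against empty vector (0.39 ± 0.14, adjusted p = 0.061). Ankrd37, an ankyrin repeat gene used as a hypoxia reporter, went the other way in R-2HG. It stood at 0.34, 0.52 and 0.26 in R-2HG, above every other array, at 0.06, -0.12 and -0.10 in empty vector, -0.16, -0.41 and 0.13 in IDH1wt and -0.13, -0.10 and -0.36 in IDH1mut. The rise over empty vector was 0.42 ± 0.13 (adjusted p = 0.0214), lost without empty vector replicate 2 or 3 or R-2HG replicate 2 (adjusted p from 0.0644 to 0.0885). IDH1mut was lower than R-2HG (-0.57 ± 0.13, adjusted p = 0.00726).

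Mif, Ndrg1 and Adm were called as genes in none of the 5 comparisons, but their probe sets differed. Mif, the macrophage migration inhibitory factor, has 2 probe sets that moved in opposite directions in R-2HG. At 1416335_at it stood at -0.66, -0.64 and -0.26 in R-2HG and 0.33, 0.08 and 0.09 in empty vector, a change of -0.69 ± 0.11 (adjusted p = 0.000766, adjusted over all probe sets). At 1433109_at it stood at 0.32, 0.33 and 0.10 in R-2HG and 0.00, -0.28 and -0.30 in empty vector, a change of 0.44 ± 0.12 (adjusted p = 0.0108). The gene mean, at -0.12 ± 0.08, therefore hid both. For Ndrg1, a stress-induced differentiation gene, 2 of 5 probe sets fell in R-2HG, 1423413_at by 0.80 and 1450977_s_at by 0.55. For Adm, which encodes the vasodilator peptide adrenomedullin, 1447839_x_at rose in R-2HG by 0.50 and 1416077_at was at -0.19 and not called. Which of these probe sets reports the main transcript was not tested. Counted over probe sets, 22 of 32 members (68.8%) had at least 1 probe set called in R-2HG against empty vector, beside 51.4% of all genes, and 12 (37.5%) in IDH1mut, beside 28.8%. How many probe sets a gene has differs between members and all genes and was not adjusted for.

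**Figure D4:**
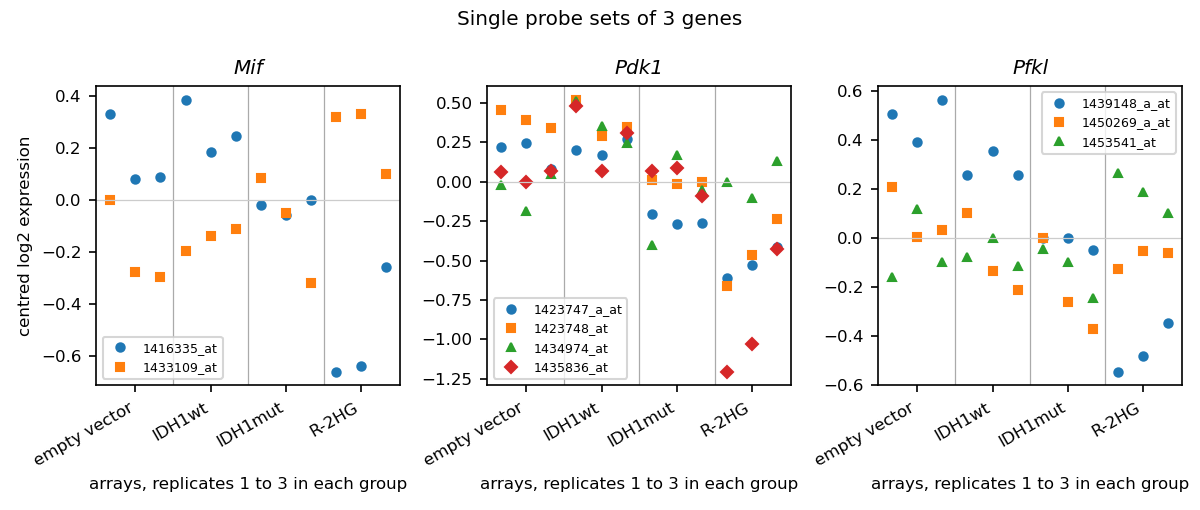
Centred log2 values of the single probe sets of Mif, Pdk1 and Pfkl on the 12 arrays (3 per group, replicates 1 to 3 from left to right); each symbol is 1 probe set. In R-2HG the Mif probe sets part in opposite directions, while 1 probe set each of Pdk1 (1434974_at) and Pfkl (1453541_at) is not lower there than in empty vector.

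Of the transcription factors, Hif1a fell in R-2HG. It stood at -0.13, -0.07 and -0.20 in R-2HG, 0.11, 0.24 and 0.20 in empty vector, 0.20, 0.13 and 0.10 in IDH1wt and 0.04, -0.01 and 0.04 in IDH1mut. The R-2HG arrays were the lowest, and the IDH1mut arrays lay between them and the rest without overlap. Against empty vector the fall in R-2HG was -0.32 ± 0.07 (adjusted p = 0.00299), and IDH1mut was at -0.16 ± 0.07 (adjusted p = 0.11). It was called at 2 of 3 probe sets (1427418_a_at was at -0.14), and 1416035_at was also called lower in IDH1mut (-0.25). The call of the gene in R-2HG was kept in every single-array omission and without R-2HG replicates 1 and 2 (adjusted p = 0.032). Epas1, which encodes the second alpha subunit, Arnt and Vhl were called in none of the 5 comparisons, with changes from -0.12 to 0.19. For Vhl, probe set 1434708_at alone was higher in IDH1mut (0.30) and R-2HG (0.34), both called.

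Other genes of these pathways were counted from lists outside the members. How the results for these lists depend on R-2HG replicates 1 and 2 was not examined, unlike for the members. The shares of all genes to read these counts against are 12.1% lower and 10.5% higher in IDH1mut, 24.3% lower and 16.5% higher in R-2HG, and 1.35% in IDH1wt, each against empty vector. Of 13 oxygen sensor and HIF modulator genes, 3 were called lower and 0 higher in R-2HG by limma (6 and 1 at an unadjusted p under 0.05), and 1 was lower and 2 higher in IDH1mut, against empty vector. Egln1, the main prolyl hydroxylase that marks HIF for destruction, fell in both (-0.50 ± 0.11, adjusted p = 0.00698 in IDH1mut, and -0.62 ± 0.11, adjusted p = 0.0012 in R-2HG). Eloc and Cul2, parts of the Vhl ubiquitin ligase, fell in R-2HG by 0.55 and 0.53. Of 25 further hypoxia targets 5 were higher and 3 lower in R-2HG, with a median of -0.00, and 3 higher and 1 lower in IDH1mut, with a median of 0.08. P4ha1, a collagen prolyl hydroxylase, changed by -1.15 ± 0.11 in R-2HG (adjusted p = 5.09e-05) and Wsb1 by 0.62 ± 0.10, and Zfp395 changed by -0.59 ± 0.10 in IDH1mut.

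Of 10 measured genes of pyruvate dehydrogenase and mitochondrial pyruvate import, limma called 6 lower and 0 higher in R-2HG, with a median of -0.34, and 0 lower and 1 higher in IDH1mut. At an unadjusted p under 0.05 these counts were 7 and 0, and 3 and 1. Dlat and Pdha1, subunits of the complex, fell in R-2HG by 0.61 and 0.48, and Pdp2, the phosphatase that turns the complex on, by 0.34. Of 6 pentose phosphate pathway genes 2 were higher and 1 lower in each comparison: Pgd rose by 0.39 in IDH1mut and 0.49 in R-2HG, Taldo1 by 0.40 and 0.21, and Pgls changed by -0.31 and -0.59. Among 16 other glycolysis isozymes and modulators 2 were higher and 1 lower in IDH1mut and 4 higher and 4 lower in R-2HG. Adpgk, a glucokinase that uses ADP, rose in both, by 1.25 ± 0.10 in IDH1mut (adjusted p = 1.64e-05) and 1.03 ± 0.10 in R-2HG (adjusted p = 6.01e-05). IDH1wt lay at 0.08 ± 0.10. Tigar, which lowers the fructose bisphosphate signal, changed by -0.51 in R-2HG, and the transporter Slc16a7 by -0.44 in IDH1mut and -0.63 in R-2HG. In IDH1wt against empty vector 0 of the 70 genes of these 5 lists were called by limma, beside 1.35% of all genes, and 10 had an unadjusted p under 0.05.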

How the data were processed

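RNA of the 12 samples was hybridised to Affymetrix mouse arrays, and the authors deposited log2 values made with RMA, per the submitters' processing notes. The deposited log2 values are centred per probe set on a reference the sources used here do not give, so they carry differences and no levels. Array intensities were not reprocessed. Probe sets naming exactly 1 gene symbol (28805 of 32533) were averaged per gene to 15858 genes. limma 3.58.1 in R 4.3.3 was fitted over all 12 arrays (lmFit, eBayes without trend, 8 residual degrees of freedom), with an F test over the 4 groups and 5 pairwise comparisons, each p adjusted over all genes by Benjamini-Hochberg with a threshold of 0.05. Probe sets were fitted the same way, adjusted over probe sets. Intervals are 95% and their precision is limited by 3 arrays per group. All members are named. Of each other pathway list the 3 genes with the smallest F test p were named. Members and lists were chosen with earlier results of these data known. Promoter sequences are RefSeq's, of GRCm38.p6. The model was tested on simulated data. Alternatives covered normalization, probe set choice, array weights, a replicate block, filters and leaving out arrays.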

Additional observations from a re-analysis of the deposited data

How the results depend on the processing

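Array weights and a trended prior kept all 44 pairwise member calls, and no call on the gene level changed direction under an alternative. Median centring could change nothing, because every array already had a median of 0. Further quantile normalization lost 6 of 44. The fit of only the 2 groups compared lost 5: Hk2 in R-2HG against empty vector, Car9 in IDH1mut against IDH1wt, and Hk1, Pfkm and Pkm in IDH1mut against R-2HG. The probe set with the highest SD lost 5: Aldoc and Vegfa in IDH1mut against empty vector, Pdk1 in IDH1mut against IDH1wt, and Pfkfb3 and Pkm in IDH1mut against R-2HG. It gained Pfkp and Vhl in IDH1mut and Adm, Mif, Ndrg1, Pfkp, Slc2a3 and Vhl in R-2HG against empty vector (20 called, beside 45.7% of all genes), Pfkl in IDH1mut against IDH1wt, and Adm, Mif and Pfkl in IDH1mut against R-2HG. Array weights raised the members called against empty vector from 8 to 14 in IDH1mut (30.4% of all genes). The counts rose from 14 to 21 in R-2HG (57.9%) and from 1 to 2 in IDH1wt (8.75%). The weights were 2.17, 1.44 and 0.34 for R-2HG replicates 1, 2 and 3, and the last was the lowest of all arrays. This setting therefore leans on R-2HG replicates 1 and 2. Among genes above the 30th percentile of SD, where fewer members were tested, 5 were called in IDH1mut and 9 in R-2HG against empty vector, beside 28.1% and 52.0% of the genes tested. With a fold change of at least 1.5 asked for as well, the counts were 1 for IDH1mut, 2 for R-2HG and 0 for IDH1wt against empty vector, 0 for IDH1mut against IDH1wt and 2 for IDH1mut against R-2HG. The share of all genes that passed this rule was not counted, so these counts cannot be set against it. Counted over single probe sets, 22 members had a call in R-2HG against empty vector, beside 51.4% of all genes. Without R-2HG replicates 1 and 2, 4 members were called in R-2HG against empty vector, 0 in IDH1mut against R-2HG and 11 by the F test. Leaving out 1 array at a time gave 7 to 10 calls in IDH1mut, 8 to 18 in R-2HG and 0 to 1 in IDH1wt against empty vector. It gave 2 to 5 in IDH1mut against IDH1wt, 10 to 17 in IDH1mut against R-2HG and 13 to 23 by the F test. Of all genes 15.3% to 25.9% were then called in IDH1mut, 28.9% to 44.3% in R-2HG and 0.53% to 2.36% in IDH1wt against empty vector. The shares were 9.89% to 18.8% in IDH1mut against IDH1wt and 19.6% to 41.0% in IDH1mut against R-2HG. They were not counted for the F test. At single probe sets the sign turned for Slc2a3 in IDH1mut (-0.069 at 1427770_a_at), for Pfkl and Pdk1 in R-2HG (0.23 at 1453541_at and 0.062 at 1434974_at), each against empty vector, and for Pdk1 in IDH1mut against R-2HG (-0.10 at 1434974_at). The cause of these shifts was not tested.

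With the replicate number as a replicate block the counts were 9, 14 and 1 in IDH1mut, R-2HG and IDH1wt against empty vector, 4 in IDH1mut against IDH1wt, 15 in IDH1mut against R-2HG (without Pkm and Slc16a1) and 20 by the F test. Of all genes 20.5%, 39.0%, 0.927%, 13.7% and 33.7% were called in these 5 comparisons. For the F test with the block that share was not counted. Whether the numbers pair the samples is not stated. Of 18 correlations between arrays with the same number, 1 was over 0.1, and 3 of 12 arrays correlated best with their own number. The correlations were of deviations from group means of 3 arrays, so they cannot exclude a pairing.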
